A study of Saccharomyces cerevisiae with 8 samples.

Results

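The enzymes of glycolysis and ethanol fermentation were followed in budding yeast, Saccharomyces cerevisiae, isoenzyme by isoenzyme. They were taken by gene name: 33 of the 6600 protein-coding genes, from the hexokinases to pyruvate kinase, with the pyruvate decarboxylases, alcohol dehydrogenases, acetaldehyde dehydrogenases and glycerol-3-phosphate dehydrogenases that handle the products. All 33 were found, each with a coding sequence in 1 piece, and all 33 passed the filter on low counts. None lay inside a region amplified in any of the strains. The measure was ribosome profiling, which counts the short mRNA fragments shielded by translating ribosomes (ribosome protected fragments, RPFs). It was made in 4 strains with 2 replicate chemostats each, 8 libraries in all. The strains had evolved under glutamine limitation and gained extra copies of GAP1, the general amino acid permease gene (a copy number variant, CNV).

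ODIRA_B (strain DGY1743) and ODIRA_A (DGY1735) carry CNVs formed by inverted-repeat amplification at a replication origin. ComQuad (DGY1741) has the shortest amplified stretch around GAP1, formed in the same way and followed by a transposon-mediated gain of GAP1. Trans (DGY1726) has a transposon-mediated tandem amplification within a translocation, and a further amplified region on chromosome V. Each strain is 1 isolated clone of the haploid laboratory background FY4/S288C and carries a GFP and KanMX reporter at the CNV. The paper also reports new single-base changes, insertions or deletions in the evolved strains, none of them within amplified genes. ODIRA_B and ComQuad were isolated later in the evolution than ODIRA_A and Trans. Between these pairs, time of isolation, CNV and the new mutations cannot be told apart. Within a pair, CNV and the new mutations cannot be told apart either. All cultures were aerobic, at 30 °C in medium with 2% glucose and 800 µM glutamine, at a doubling time of 5.8 h. The ancestor was not analysed here, so the strains were compared with each other.

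Glycolysis splits glucose into pyruvate in a fixed order of enzyme steps and yields ATP. In fermentation, pyruvate decarboxylase turns pyruvate into acetaldehyde, which alcohol dehydrogenase reduces to ethanol, returning NAD+ to the pathway. Many steps in yeast have several isoenzymes, one abundant and others induced by stress, nutrient supply or a respiratory state.

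Between 3723082 and 11459498 RPFs per library fell on coding sequence, the fewest in ODIRA_B. At a given level of a gene, the noise from counting alone was therefore largest there. Over 4279 genes, the log2 ratio of the replicates of a strain had an SD of 0.18 in ODIRA_B, 0.15 in ComQuad, 0.26 in ODIRA_A and 0.37 in Trans. Of the markers of mating type a, the type of FY4, 5 of 5 were detected, with sums in CPM (counts scaled to the total of the library, for these sums without TMM, edgeR's correction for library composition) of 874 and 781 in ODIRA_B, 1929 and 1784 in ComQuad, 353 and 300.4 in ODIRA_A, and 648 and 1310 in Trans. The 4 markers of mating type alpha summed to between 15.4 and 96.3 CPM per library. The highest sums were those of ComQuad, where MF(ALPHA)1 averaged 73.3 CPM after TMM scaling, as used for single genes throughout. All 10 genes of a list of stress-responsive genes were lower in ComQuad than in ODIRA_A and in Trans and higher in ODIRA_B than in ComQuad (edgeR, adjusted p below 0.05 for each). Of all genes tested, 17.2%, 16.3% and 14.7% were called in these directions. The list was chosen with earlier results of these data known. The sums of its 10 genes per library were 10120 and 8796 CPM in ODIRA_B, 3316 and 3665 in ComQuad, 17210 and 20610 in ODIRA_A, and 17830 and 17870 in Trans. In a bulk library, a change in every cell and a change in the share of cells in some state cannot be told apart, and neither can more mRNA and more ribosomes per mRNA.

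The 33 genes took up between 10.6% and 14.5% of all coding RPFs. The share was 11.5% and 10.95% in ODIRA_B, 10.6% and 10.9% in ComQuad, 14.5% and 13.1% in ODIRA_A, and 13.3% and 13.3% in Trans. The ODIRA_A and Trans libraries lay above all 4 of the others. The glyceraldehyde-3-phosphate dehydrogenase step, with 3 genes, held the most at 3.11% and 2.94% in ODIRA_B, 2.76% and 2.80% in ComQuad, 4.49% and 3.98% in ODIRA_A, and 3.96% and 4.13% in Trans. Pyruvate decarboxylase was highest in ODIRA_B instead, with 2.41% and 2.28% in ODIRA_B against 1.63% to 1.84% in the other 6 libraries. Acetaldehyde dehydrogenase was highest in ComQuad, at 0.255% and 0.229%, against 0.162% to 0.185% in the others.

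**Figure D1:**
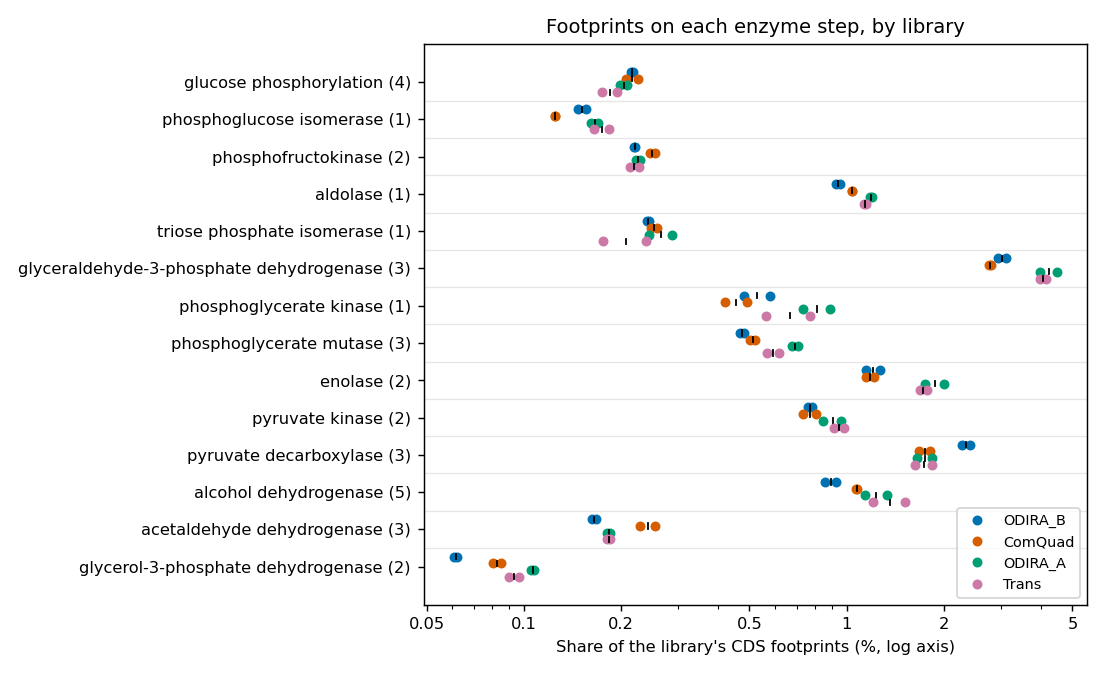
Share of all coding RPFs (%, log axis) taken by each of the 14 enzyme steps, with a dot per library and a black tick at the mean of the 2 libraries of each strain. The ODIRA_A and Trans dots lie to the right of ODIRA_B and ComQuad at the glyceraldehyde-3-phosphate dehydrogenase and enolase steps, while the ODIRA_B dots lie to the right of the others at pyruvate decarboxylase.

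Levels were compared between genes only per length, in TPM (RPFs per coding base, scaled to the same total in each library). TDH3, the main glyceraldehyde-3-phosphate dehydrogenase, had the highest mean over the 8 libraries, 14297 TPM, and rank 7 of the 6600 genes. TDH2 (8115 TPM), FBA1 (7339 TPM), PDC1 (7232 TPM), ADH1 (6523 TPM) and GPM1 (5393 TPM) followed. At the other end stood PYK2, the second pyruvate kinase, at 26.7 TPM, and ADH4 at 1.23 TPM, with 6 to 28 RPFs per library. The lowest rank was that of ADH4, 5731.

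The 33 genes were chosen with earlier results of these data known, so their shares beside those of all genes are descriptions only. Counted over the 4 strains together, 22 of the 33 genes (66.7%) differed (edgeR's quasi-likelihood test, adjusted p below 0.05), against 43.5% of all 5725 genes tested. Without ComQuad replicate 1 the count was 13, and without ComQuad replicate 2 it was 14. The 11 not called were GLK1, EMI2, PFK1, PFK2, FBA1, TPI1, GPM3, CDC19, ADH1, ADH4 and ALD4. Differences were mostly small. Strain means lay more than 1 apart on the log2 scale for 4 called genes, HXK2, PDC5, PDC6 and ALD5, which is 12.1% of the 33 against 18% of all genes tested.

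ComQuad was compared with the strains isolated earlier, ODIRA_A and Trans. Against ODIRA_A, 16 of the 33 genes were lower in ComQuad and 3 were higher, where 17.2% and 16.4% of all genes were called in these directions. The count of 19 was 9 without ComQuad replicate 1, 10 without ComQuad replicate 2 and 10 without ODIRA_A replicate 1. Against Trans, 13 were lower in ComQuad and 4 higher, where 16.3% and 14.5% of all genes were called, and the count of 17 was 6 and 8 without ComQuad replicate 1 and replicate 2. The median log2 difference over the 33 was -0.37 against ODIRA_A and -0.38 against Trans, beside -0.0037 and -0.0034 over all genes. The 10 stress-responsive genes had medians of -2.66 and -2.49 in the same comparisons, and their part in these differences was not tested. The 13 genes lower in both comparisons, which share the ComQuad libraries, were HXK1, PGI1, TDH1, TDH2, TDH3, PGK1, ENO1, ENO2, PDC6, ADH3, ADH5, ALD5 and GPD1. Among them, TDH1, TDH2 and TDH3 share sequence with each other, as do ENO1 and ENO2. Calls within each of these families may rest in part on the same reads.

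ODIRA_B was compared with each of the other strains in the same way. Against ComQuad, 7 were higher in ODIRA_B and 2 lower, where 14.7% and 9.9% of all genes were called. Scaled by total counts alone, which moved all genes by -0.15 on the log2 scale, 4 were higher and 5 lower. Against ODIRA_A, 3 were higher in ODIRA_B and 9 lower (12.4% and 9.99% of all genes), and that scaling moved all genes by -0.14. Against Trans, 3 were higher in ODIRA_B and 8 lower (10.1% and 8.63% of all genes).

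These counts depended on which libraries were in the fit. Leaving out 1 library leaves a strain with a single library, and calls were lost both with little change in the difference and with a smaller one. For PGI1, the log2 difference of ODIRA_B from ComQuad was 0.43 with all libraries. It was 0.42 and 0.44 without ComQuad replicate 1 and 2, and 0.35 and 0.50 without ODIRA_B replicate 1 and 2. With all libraries kept, this PGI1 call was also lost when scaled by total counts alone (0.28, edgeR adjusted p = 0.108). It was lost too with replicate number in the fit (0.43, edgeR adjusted p = 0.0538). For GPD2, the difference of ODIRA_B from ODIRA_A went from -0.54 to -0.33 without ODIRA_A replicate 1. For ADH1, that of ODIRA_B from Trans went from -0.61 to -0.38 without Trans replicate 2. How many losses came from lost power was not tested. Without either replicate of ODIRA_B the 9 calls against ComQuad became 4, the 12 against ODIRA_A became 5 and 4, and the 11 against Trans became 1 and 2. Of those left without ODIRA_B replicate 2, 3 were higher and 1 lower against ODIRA_A. Against Trans no lower call was left without either ODIRA_B library, or with only the 4 libraries compared in the fit. Without either ComQuad library the calls of ODIRA_B against ComQuad were 5 and 4, and those against Trans were 6 and 6. Without either ODIRA_A library the calls against ODIRA_A were 7 and 7, and without Trans replicate 2 those against Trans were 6.

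Between ODIRA_A and Trans, no gene of the 33 was called by edgeR, where 1.01% and 2.64% of all genes were called higher and lower. At an unadjusted p below 0.05 there was 1 of the 33, against 1241 of the 5725 genes tested, and DESeq2 called 1, PYK2. Its log2 difference was -0.60 (SE 0.15) with edgeR's adjusted p at 0.0502. Without Trans replicate 1, 4 were called. Over all pairs of strains, 68 differences were called, and 21 of them, in 10 genes, were called in every one of 17 other settings. These 10 were HXK1, HXK2, TDH1, ENO1, PDC6, ADH3, ADH5, ALD5, ALD6 and GPD1, and each difference in a gene of the 33 given below without a remark on left-out libraries is one of the 21.

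**Figure D2:**
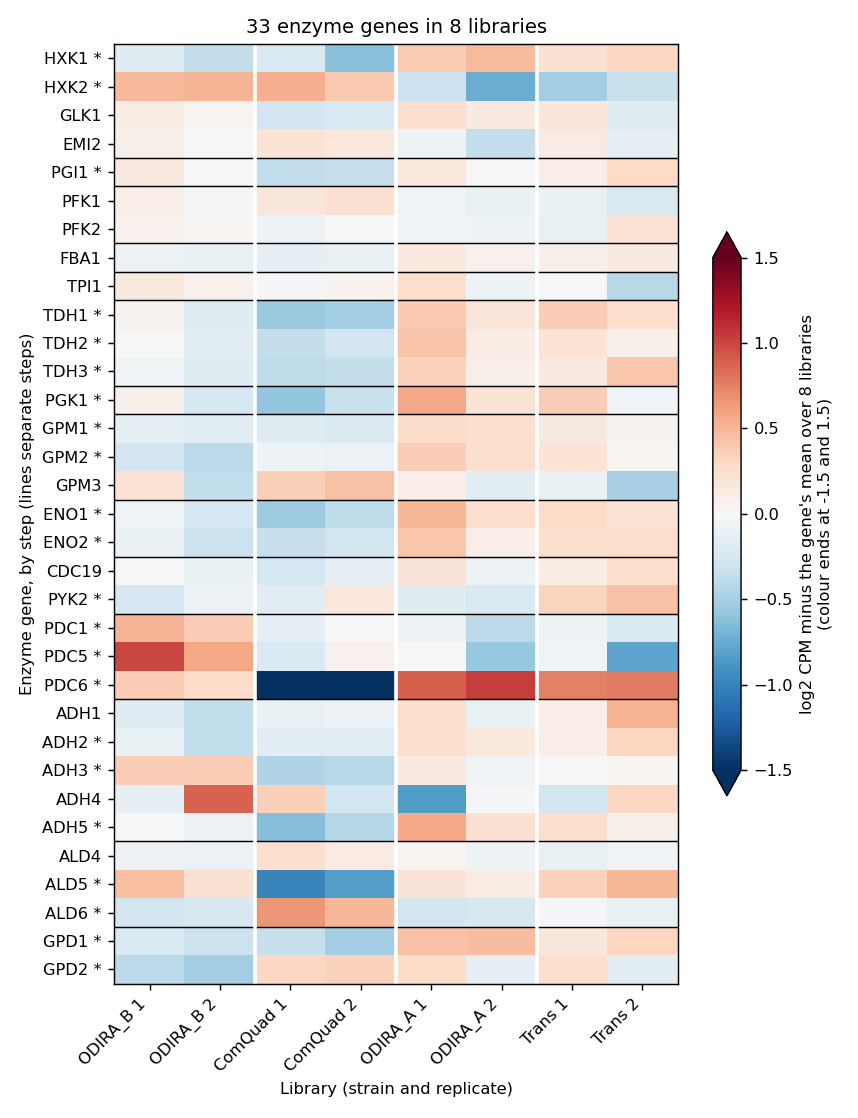
Log2 CPM of each of the 33 genes minus that gene's mean over the 8 libraries, in colour clipped at 1.5 either way, with genes by enzyme step down the page and libraries across. An asterisk marks the 22 genes that differed among the strains. PDC6 and ALD5 are far below their means in both ComQuad libraries, and HXK2 is above its mean in ODIRA_B and ComQuad.

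Glucose phosphorylation, the entry step, has 2 hexokinases, HXK1 and HXK2, and the glucokinases GLK1 and EMI2. HXK2 is the hexokinase that predominates on plentiful glucose and also acts in glucose repression. It had 1052 and 1067 CPM in ODIRA_B, 1096 and 984 in ComQuad, 600.02 and 447 in ODIRA_A, and 525 and 598 in Trans. All 4 libraries of ODIRA_B and ComQuad lay above all 4 of ODIRA_A and Trans. The log2 difference was 1.02 for ODIRA_B over ODIRA_A, 0.92 over Trans, 0.99 for ComQuad over ODIRA_A and 0.89 over Trans (SE 0.16 each). The edgeR adjusted p-values were 0.00128, 0.00309, 0.000729 and 0.00186. ODIRA_B and ComQuad differed by 0.03 (SE 0.16), which was not called.

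HXK1, the isoenzyme that is repressed by glucose, ran the other way. It had 249 and 220 CPM in ODIRA_B, 241 and 184 in ComQuad, 369 and 395 in ODIRA_A, and 332 and 350 in Trans. The ODIRA_A and Trans libraries lay above all others. ComQuad was below ODIRA_A by a log2 difference of -0.84 (SE 0.15, edgeR adjusted p = 0.0013) and below Trans by -0.68 (adjusted p = 0.00592), the last not called without ComQuad replicate 2 (adjusted p = 0.0836). ODIRA_B was also below ODIRA_A (-0.70) and Trans (-0.54). The first was not called without ODIRA_B replicate 2 or ODIRA_A replicate 2, and the second without either ODIRA_B library (adjusted p from 0.0549 to 0.207 for these).

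The coding sequences of these hexokinases are 77.8% identical over 1458 aligned bases and share no run of 25 bases with each other or the rest of the genome, so their footprints can be told apart. HXK1 lies on chromosome VI, 253592-255049, minus strand, and HXK2 on chromosome VII, 23935-25395, plus strand (build R64). A typical 30-base window, the one with the median number of mismatches, shows how they differ. It covers coding bases 55 to 84 in both, and the capitals mark bases that differ from HXK2:
HXK1 (chrVI:254966-254995, minus strand): gtgccCaaggaattgatgGaTGaaattCaT
HXK2 (chrVII:23989-24018, plus strand): gtgccaaaggaattgatgcaacaaattgag

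GLK1, the glucokinase, was not called over the 4 strains together. It had 932 and 887 CPM in ODIRA_B, 708 and 736 in ComQuad, 1029 and 950 in ODIRA_A, and 974 and 760 in Trans. EMI2, its less abundant paralog, averaged 98.2, 108, 82.1 and 94.8 CPM in ODIRA_B, ComQuad, ODIRA_A and Trans. In ComQuad against ODIRA_A alone, GLK1 was lower by -0.45 on the log2 scale (edgeR adjusted p = 0.0317) and EMI2 higher by 0.40 (adjusted p = 0.0466). Both calls were lost on leaving out any 1 of the ODIRA_B and ComQuad libraries or ODIRA_A replicate 2, and that of GLK1 also without ODIRA_A replicate 1 (adjusted p from 0.0615 to 0.258). The share of the whole step ran from 0.175% to 0.226% of coding RPFs over the 8 libraries.

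The steps from glucose 6-phosphate to triose phosphate have 1 gene each, or 1 for each subunit. PGI1, phosphoglucose isomerase, averaged 1613 ± 117 CPM in ODIRA_B, 1198 ± 13.4 in ComQuad, 1612 ± 131 in ODIRA_A and 1764 ± 171 in Trans (SD, n = 2). It was lower in ComQuad than in Trans by a log2 difference of -0.56 (SE 0.13, edgeR adjusted p = 0.0104), but not without ComQuad replicate 1 or replicate 2 (adjusted p = 0.0931 at most). The subunits of phosphofructokinase, PFK1 and PFK2, the main point of control of the pathway, were not called over the 4 strains together, and their means ran from 948 to 1216 and from 1177 to 1279 CPM. PFK1 was higher in ComQuad than in Trans by 0.36 on the log2 scale (adjusted p = 0.0491), a call lost on leaving out any 1 library other than Trans replicate 1 (adjusted p = 0.239 at most). The aldolase FBA1, with means of 9960 to 11562 CPM, and the triose phosphate isomerase TPI1, with 2090 to 2581 CPM, were not called in any pair of strains.

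Glyceraldehyde-3-phosphate dehydrogenase is made from TDH1, TDH2 and TDH3, which are known to differ in when they are used, TDH1 more in stress and stationary phase. TDH1 averaged 4411 ± 520 CPM in ODIRA_B, 3175 ± 67.6 in ComQuad, 5620 ± 582 in ODIRA_A and 5693 ± 342 in Trans (SD, n = 2). It was lower in ComQuad than in ODIRA_A by a log2 difference of -0.82 (SE 0.14, edgeR adjusted p = 0.00118) and than in Trans by -0.84 (adjusted p = 0.00129). TDH3 averaged 17573, 14782, 22292 and 23212 CPM in ODIRA_B, ComQuad, ODIRA_A and Trans, and TDH2 averaged 10251, 8711, 13198 and 11993 CPM. Both had the same order of ComQuad below ODIRA_A and Trans, with log2 differences from -0.65 to -0.46. None of these 4 calls held without ComQuad replicate 1 or replicate 2. Those against ODIRA_A were also lost without ODIRA_A replicate 1, and the TDH2 call against Trans without either ODIRA_B library or Trans replicate 1 (adjusted p from 0.0565 to 0.212 over all of them).

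The 3 genes could not be fully separated by their footprints. Of the windows of 25 bases in the coding sequence, 31.5% in TDH1, 58.4% in TDH2 and 51.6% in TDH3 occur elsewhere in the genome. For windows of 32 bases the shares were 25.5%, 49.2% and 41.9%. How the authors assigned reads with several matches is not given in the sources used here, so the split within this family is uncertain. The TDH2 and TDH3 sequences are 95.8% identical, and a typical window, coding bases 19 to 48, differs at its last base only, in capitals:
TDH2 (chrX:454634-454663, minus strand): aacggtttcggtagaatcggtagattggtT
TDH3 (chrVII:883763-883792, minus strand): aacggtttcggtagaatcggtagattggtc

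PGK1, phosphoglycerate kinase, the first enzyme of the pathway to make ATP, averaged 5636 ± 919 CPM in ODIRA_B, 4377 ± 523 in ComQuad, 7864 ± 1418 in ODIRA_A and 6733 ± 1344 in Trans (SD, n = 2). The log2 difference of ComQuad from ODIRA_A was -0.85 (SE 0.19, edgeR adjusted p = 0.00668), but the gene was not called without ComQuad replicate 1 or ODIRA_A replicate 1 (adjusted p = 0.0865 at most). GPM1, the phosphoglycerate mutase of the pathway, averaged 4866, 4704, 6458 and 5756 CPM in ODIRA_B, ComQuad, ODIRA_A and Trans. Its log2 difference of ComQuad from ODIRA_A was -0.46 (adjusted p = 0.0141), lost without ComQuad replicate 1, ComQuad replicate 2 or ODIRA_A replicate 1 (adjusted p = 0.12 at most). Its homologs GPM2 and GPM3, which have little or no known mutase activity, averaged 132 to 206 and 31.7 to 50.6 CPM. GPM2 was lower in ODIRA_B than in ODIRA_A by -0.64 (SE 0.12, adjusted p = 0.00369), but not without ODIRA_B replicate 2 (adjusted p = 0.0618).

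Enolase has an isoenzyme pair, ENO1, which is also expressed on non-fermentable carbon, and ENO2, which is induced by glucose. ENO1 averaged 5628 ± 564 CPM in ODIRA_B, 4605 ± 353 in ComQuad, 8195 ± 964 in ODIRA_A and 7457 ± 275 in Trans (SD, n = 2). It was lower in ComQuad than in ODIRA_A by a log2 difference of -0.83 (SE 0.14, edgeR adjusted p = 0.00121). Against Trans the difference was -0.70 (adjusted p = 0.00437), and it was not called without ComQuad replicate 1 (adjusted p = 0.0734). ENO2 averaged 7228, 6733, 10014 and 10006 CPM in ODIRA_B, ComQuad, ODIRA_A and Trans, and its log2 difference of ComQuad from ODIRA_A, -0.57, was not called without ComQuad replicate 1, ComQuad replicate 2 or ODIRA_A replicate 1 (adjusted p = 0.116 at most).

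The coding sequences of ENO1 and ENO2 are 94.8% identical, and 46.4% of their windows of 25 bases are shared, so this split is uncertain too. The typical window, coding bases 76 to 105, differs at its last base, in capitals:
ENO1 (chrVII:1001002-1001031, plus strand): accgaaaagggtgttttcagatccattgtC
ENO2 (chrVIII:451402-451431, plus strand): accgaaaagggtgttttcagatccattgtt

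Pyruvate kinase closes glycolysis. CDC19, its main gene, averaged 8125 ± 428 CPM in ODIRA_B, 7317 ± 529 in ComQuad, 8736 ± 1206 in ODIRA_A and 9493 ± 664 in Trans (SD, n = 2), and was not called in any pair. PYK2, which is repressed by glucose, averaged 48.5 ± 3.78, 54.4 ± 8.8, 47.1 ± 1.04 and 71.2 ± 3.47 CPM in the same order. It was lower in ODIRA_B than in Trans by a log2 difference of -0.55 (SE 0.15, edgeR adjusted p = 0.0297), though not without ODIRA_B replicate 1 or replicate 2 (adjusted p from 0.102 to 0.202).

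Pyruvate decarboxylase held the widest difference of all 33 genes. PDC6, a minor isoenzyme known for its low content of sulfur amino acids and its induction when sulfur is short, had 1581 and 1481 CPM in ODIRA_B, 317 and 271 in ComQuad, 2282 and 2514 in ODIRA_A, and 2058 and 2087 in Trans. Both ComQuad libraries were far below the other 6, and both ODIRA_B libraries were below those of ODIRA_A and Trans. ComQuad was lower than ODIRA_A by a log2 difference of -3.03 (SE 0.14, edgeR adjusted p = 2.52e-07) and lower than Trans by -2.82 (SE 0.14, adjusted p = 4.17e-07). ODIRA_B was higher than ComQuad by 2.38 (SE 0.14, adjusted p = 1.86e-06). The smaller difference of ODIRA_B from ODIRA_A, -0.65, was not called without ODIRA_B replicate 2 (adjusted p = 0.0784). That of ODIRA_B from Trans, -0.44, was called with all libraries (adjusted p = 0.0429) and was called without Trans replicate 1, but was lost on leaving out any 1 of the other 7 libraries (adjusted p from 0.0506 to 0.235).

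PDC1, the main isoenzyme, did not follow PDC6. It had 23307 and 21256 CPM in ODIRA_B, 15074 and 16528 in ComQuad, 15426 and 12558 in ODIRA_A, and 15638 and 14229 in Trans. PDC5, the isoenzyme that is raised when PDC1 is lost, had 1365 and 1013 CPM in ODIRA_B, 577 and 709 in ComQuad, 677 and 458 in ODIRA_A, and 652 and 394 in Trans. For both genes the ODIRA_B libraries lay above the other 6.

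The log2 differences of ODIRA_B from ComQuad, ODIRA_A and Trans were 0.50, 0.67 and 0.58 for PDC1 (SE 0.14 each) and 0.89, 1.07 and 1.18 for PDC5 (SE 0.27 each). All 6 were called by edgeR (adjusted p from 0.0078 to 0.0353), and none held without ODIRA_B replicate 1. The calls against ComQuad were also lost without ODIRA_B replicate 2 or either ComQuad library, those against ODIRA_A without ODIRA_A replicate 2, and those against Trans without Trans replicate 2 (and for PDC1 ODIRA_B replicate 2). Scaled by total counts alone, with all 8 libraries kept, PDC1 in ODIRA_B against ComQuad was also not called (log2 difference 0.35, edgeR adjusted p = 0.0545).

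By sequence, most windows of the pyruvate decarboxylase genes are their own. The split of PDC5 from the far more abundant PDC1 is uncertain all the same. The coding sequences of PDC6 and PDC1 are 75.0% identical over 1692 bases, and those of PDC5 and PDC1 87.2%. In PDC6 1.32% of windows of 25 bases occur elsewhere in the genome, against 6.89% in PDC5 and 6.18% in PDC1. Of the PDC1 windows, 5.88% occur in PDC5 (3.19% for windows of 32 bases). Per coding base, PDC5 over PDC1 was 0.053 in ODIRA_B, the highest, and 0.034 in Trans, the lowest. Reads of PDC1 from these windows could therefore be of the order of the whole PDC5 count, and how they were assigned is not known. Of its 563 sense codons, PDC6 has 6 for methionine or cysteine, where PDC5 has 18 and PDC1 has 17. PDC6 lies on chromosome VII, 651290-652981, minus strand, and PDC1 on chromosome XII, 232390-234081, minus strand (build R64). The window of coding bases 13 to 42 has the median number of mismatches between PDC6 and PDC1, 7, and capitals mark bases that differ from PDC1:
PDC6 (chrVII:652940-652969, minus strand): actCtTggAaaataCttAttTgaaagattG
PDC5 (chrXII:410735-410764, plus strand): acCttAggtaaatatttAttTgaaagattG
PDC1 (chrXII:234040-234069, minus strand): actttgggtaaatatttgttcgaaagatta

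Alcohol dehydrogenase is represented by ADH1, the cytosolic enzyme that makes ethanol, ADH2, which oxidises it, the mitochondrial ADH3, and ADH4 and ADH5. ADH1 had 7954 and 7063 CPM in ODIRA_B, 8488 and 8591 in ComQuad, 10869 and 8474 in ODIRA_A, and 9786 and 13084 in Trans, and was not called over the 4 strains together. ODIRA_B was below Trans by -0.61 on the log2 scale (edgeR adjusted p = 0.0347), a call lost on leaving out any 1 of the ODIRA_B and ComQuad libraries or Trans replicate 2 (adjusted p = 0.207 at most). ADH2 averaged 1330, 1390, 1799 and 1814 CPM in ODIRA_B, ComQuad, ODIRA_A and Trans. It was lower in ODIRA_B than in ODIRA_A by -0.44 (adjusted p = 0.0475) and than in Trans by -0.45 (adjusted p = 0.0483). Both calls were lost on leaving out any 1 of the ODIRA_B, ComQuad and ODIRA_A libraries, and the second was lost without Trans replicate 2 as well (adjusted p = 0.305 at most). ADH1 and ADH2 share 20.6% of their windows of 25 bases with each other, so their split is uncertain. ADH4, an isoenzyme of another protein family, had 1.67 and 3.35 CPM in ODIRA_B, 2.33 and 1.49 in ComQuad, 1.02 and 1.80 in ODIRA_A, and 1.497 and 2.26 in Trans, and differences in it were not detectable at this depth.

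ADH3 averaged 605 CPM in ODIRA_B, 346 ± 6.28 in ComQuad, 479.7 ± 44.3 in ODIRA_A and 473 ± 4.5 in Trans (SD, n = 2). It was higher in ODIRA_B than in ComQuad by a log2 difference of 0.80 (SE 0.12, edgeR adjusted p = 0.000823). ADH5 was lower in ComQuad than in ODIRA_A, with means of 33.4 ± 3.5 and 63.9 ± 10.7 CPM, a log2 difference of -0.94 (SE 0.16, adjusted p = 0.00097). Its means in ODIRA_B and Trans, 46.9 and 54.5 CPM, lay between these. Against Trans, ComQuad was lower by -0.45 for ADH3 and -0.71 for ADH5, calls that were lost without ComQuad replicate 1 and, for ADH3, replicate 2 (adjusted p from 0.092 to 0.136).

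The acetaldehyde dehydrogenases, which carry acetaldehyde on to acetate, moved apart in ComQuad. ALD5, a mitochondrial isoenzyme, had 201 and 173 CPM in ODIRA_B, 73.9 and 83.3 in ComQuad, 168 and 159 in ODIRA_A, and 187 and 209 in Trans. Both ComQuad libraries were below the other 6. The log2 difference was 1.25 for ODIRA_B over ComQuad (SE 0.13, edgeR adjusted p = 5.98e-05), -1.06 for ComQuad against ODIRA_A (adjusted p = 0.000109) and -1.33 for ComQuad against Trans (adjusted p = 3.22e-05).

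ALD6, the main cytosolic isoenzyme, ran the other way, at 608 ± 8.12 CPM in ODIRA_B, 1091 ± 92.7 in ComQuad, 609 ± 11.5 in ODIRA_A and 696 ± 32.9 in Trans (SD, n = 2). ODIRA_B was lower than ComQuad by a log2 difference of -0.84 (SE 0.12, edgeR adjusted p = 0.000673) and ComQuad higher than ODIRA_A by 0.84 (adjusted p = 0.000429). The difference of ComQuad from Trans, 0.65, was not called without ComQuad replicate 1 (adjusted p = 0.0502). ALD4, the main mitochondrial isoenzyme, had 965 and 957 CPM in ODIRA_B, 1204 and 1102 in ComQuad, 1042 and 961 in ODIRA_A, and 938 and 976 in Trans, and was not called.

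The mitochondrial isoenzymes ALD5 and ALD4 are 64.3% identical in coding sequence and share no run of 25 bases. Neither is amplified. ALD5 lies on chromosome V, as does the second amplified region of Trans, but outside it. A typical window covers coding bases 100 to 129 of ALD5 and 103 to 132 of ALD4 (build R64), and capitals mark bases that differ from ALD4:
ALD5 (chrV:304129-304158, plus strand): ctTccAaatggTttCACCtaCgaAcaGcca
ALD4 (chrXV:1039942-1039971, plus strand): ctgcccaatgggttggaatatgagcaacca

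Glycerol-3-phosphate dehydrogenase draws triose phosphate off into glycerol. GPD1, the isoenzyme induced by osmotic stress, had 418 and 393 CPM in ODIRA_B, 386 and 345 in ComQuad, 663 and 677 in ODIRA_A, and 553 and 615 in Trans. The ODIRA_A and Trans libraries lay above those of ODIRA_B and ComQuad. ODIRA_B was lower than ODIRA_A by a log2 difference of -0.72 (SE 0.13, edgeR adjusted p = 0.00247). ComQuad was lower than ODIRA_A by -0.87 (adjusted p = 0.00038) and lower than Trans by -0.68 (adjusted p = 0.00243). That of ODIRA_B from Trans, -0.53, was not called without either ODIRA_B library (adjusted p = 0.14 at most).

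GPD2, the isoenzyme tied to redox balance without oxygen, had its lowest values in ODIRA_B. It had 260.3 and 239 CPM in ODIRA_B, 426 and 435 in ComQuad, 414 and 314 in ODIRA_A, and 412 and 307 in Trans. The log2 difference of ODIRA_B from ComQuad was -0.79 (SE 0.17, edgeR adjusted p = 0.00787), and it was not called without ODIRA_B replicate 1, ODIRA_B replicate 2 or ComQuad replicate 2 (adjusted p = 0.0897 at most). ComQuad was not called different from ODIRA_A or Trans in GPD2.

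**Figure D3:**
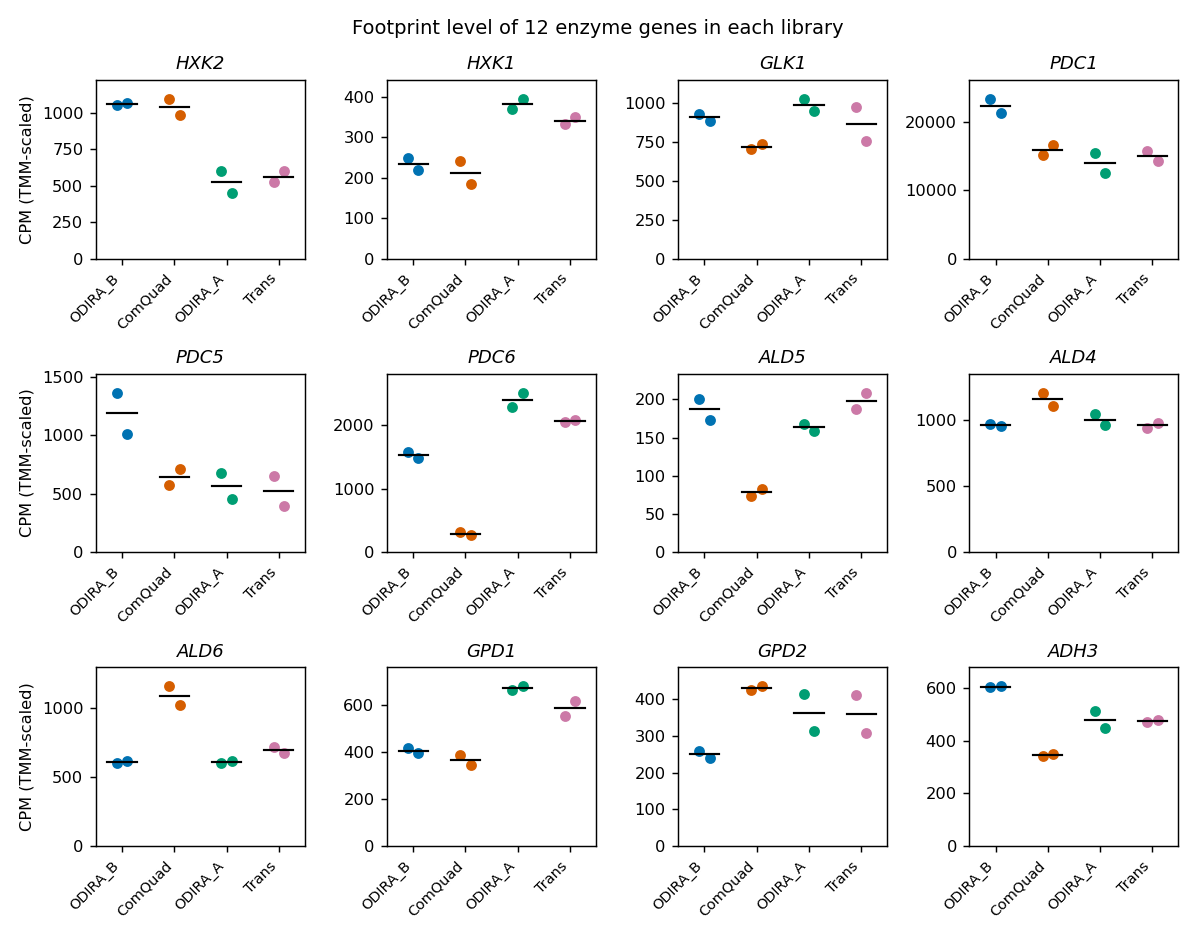
CPM of 12 of the genes by strain, 1 panel per gene, each axis from 0, with a dot per library and a line at the mean of the 2 libraries of a strain. PDC6 and ALD5 are lowest in ComQuad, ALD6 is highest there, HXK2 is high in ODIRA_B and ComQuad, and PDC1 and PDC5 are highest in ODIRA_B.

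Ratios of isoenzymes within a library do not depend on depth or on the normalization between libraries, and were taken per coding base for 19 pairs. Strain means of ratios are geometric means, taken on the log2 scale. PDC6 over PDC1 spread the widest, with 0.0688 in ODIRA_B, 0.0186 in ComQuad, 0.172 in ODIRA_A and 0.139 in Trans as strain means. HXK1 over HXK2 averaged 0.221 in ODIRA_B, 0.203 in ComQuad, 0.738 in ODIRA_A and 0.609 in Trans. GLK1 over HXK2 averaged 0.834, 0.676, 1.85 and 1.49 in the same order, so that the glucokinase exceeded HXK2 per coding base in ODIRA_A and Trans only.

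ALD5 over ALD4 was 0.194 in ODIRA_B, 0.0680 in ComQuad, 0.163 in ODIRA_A and 0.206 in Trans. GPD1 over GPD2 was 1.83 in ODIRA_B, 0.953 in ComQuad, 2.09 in ODIRA_A and 1.85 in Trans. These 5 ratios, with ADH4 over ADH1, which rested on 6 to 28 RPFs of ADH4 and was not tested, were the ones whose strain means lay more than 1 apart on the log2 scale. The spreads were 3.21, 1.86, 1.46, 1.60 and 1.13 for the 5 in the order given.

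With 2 libraries per strain, an exact permutation test over the 105 ways to pair the libraries cannot give a p below 0.00952. Of the 18 ratios tested, 8 had an unadjusted p below 0.05 and none an adjusted p below 0.05. With adjustment over 18, a single ratio at the smallest p cannot reach an adjusted p below 0.05 unless several others are as low. PDC6 over PDC1 reached the smallest p that the design allows (adjusted exact permutation p = 0.0857), as did ENO1 over ENO2 with a spread of only 0.26. HXK1 over HXK2 had an adjusted exact permutation p of 0.107 and GPD1 over GPD2 one of 0.147. The spreads were 0.23 for TDH1 over TDH3, 0.19 for TDH2 over TDH3 and 0.23 for ADH2 over ADH1, pairs that share reads.

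**Figure D4:**
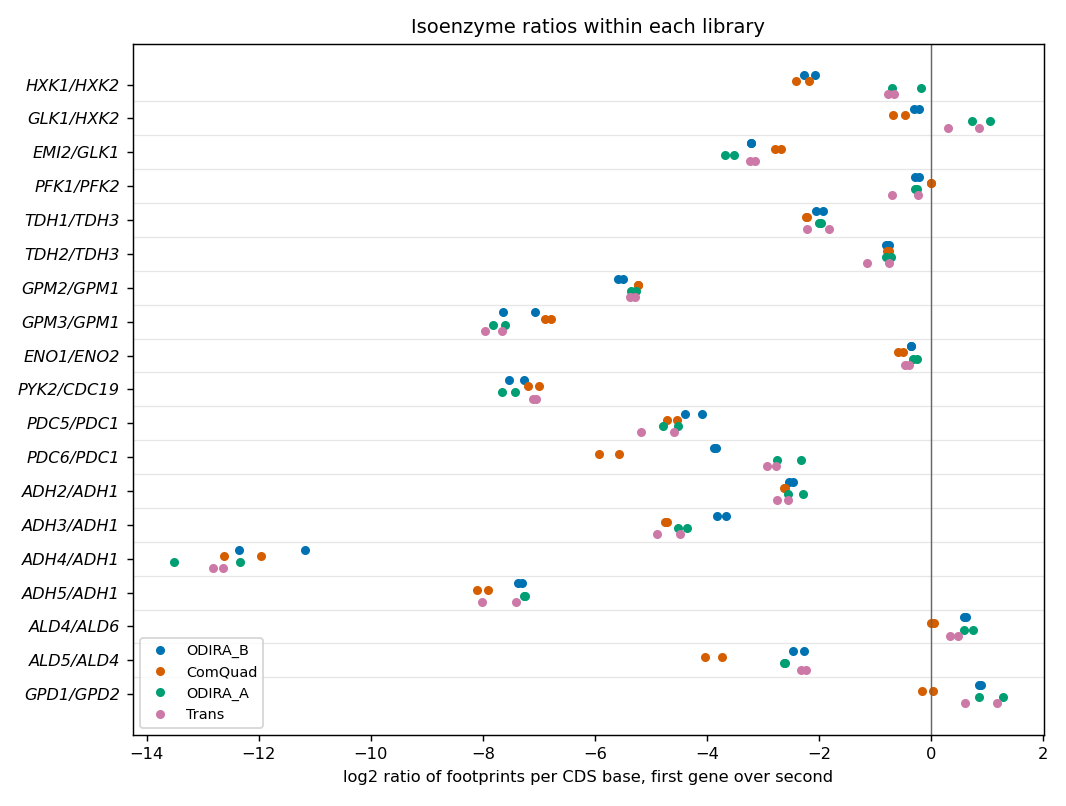
Log2 ratio of RPFs per coding base for the 19 isoenzyme pairs, with a dot per library coloured by strain. The ComQuad dots stand apart to the left for PDC6 over PDC1 and ALD5 over ALD4, and the ODIRA_B and ComQuad dots lie left of ODIRA_A and Trans for HXK1 over HXK2.

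Genes that feed or branch from the pathway were counted from lists, also chosen with earlier results of these data known. In the pentose phosphate pathway, the other route from glucose 6-phosphate, 9 of 11 genes differed among the strains, against 43.5% of all genes (edgeR). The minor isoenzymes moved most. TKL2, a second transketolase, averaged 165 ± 26.8 CPM in ODIRA_B, 8.83 ± 3.19 in ComQuad, 411 ± 90.7 in ODIRA_A and 336 ± 38.9 in Trans (SD, n = 2). GND2, a second phosphogluconate dehydrogenase, averaged 168, 13.6, 512 and 356 CPM, and NQM1, a transaldolase paralog, 74.5, 24.5, 324 and 249 CPM in the same order. Of the 11, 7 were lower and 2 higher in ComQuad than in ODIRA_A, where 17.2% and 16.4% of all genes were called, with a median log2 difference of -0.79.

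In the glycerol branch, 5 of 6 tested genes differed, against 43.5% of all genes. GCY1, a glycerol dehydrogenase, averaged 102 ± 4.62 CPM in ODIRA_B, 9.93 ± 0.403 in ComQuad, 262 ± 56.8 in ODIRA_A and 233 ± 31.2 in Trans (SD, n = 2). GPP2, a glycerol-3-phosphatase induced by osmotic stress, averaged 135, 79.8, 234 and 246 CPM. GPP1, its more abundant paralog, averaged 761 CPM in ODIRA_B, 1224 in ComQuad, 1682 in ODIRA_A and 2181 in Trans, so that ODIRA_B was lowest.

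Among the other fates of pyruvate and acetaldehyde, 3 of 14 genes differed, against 43.5% of all genes. ALD3 averaged 215, 93.0, 282 and 376 CPM in ODIRA_B, ComQuad, ODIRA_A and Trans, and ALD2 averaged 271, 141, 243 and 327 CPM. Both are cytosolic aldehyde dehydrogenases induced by stress. MPC3, a subunit of the mitochondrial pyruvate carrier, was highest in ComQuad, at 74.4 CPM against 34.1, 36.4 and 25.5 in ODIRA_B, ODIRA_A and Trans. The pyruvate dehydrogenase subunits were not called.

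Of 12 regulators of the pathway, 6 differed over the 4 strains together, against 43.5% of all genes, none by more than 1 on the log2 scale. RAP1, a general activator of glycolytic and ribosomal protein genes, averaged 125 CPM in ODIRA_B, 200.2 in ComQuad, 111 in ODIRA_A and 126 in Trans. TYE7, another activator, averaged 216, 177, 295 and 316 CPM in the same order, and PFK26, which makes the activator of phosphofructokinase, 110.3, 93.3, 161 and 149 CPM. GCR1, GCR2 and PDC2, also activators of these genes, were not called over the 4 strains together.

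The 250 bases before each start codon were searched on both strands for 4 short motifs. AGGGG, the stress response element, was found in 11 of the 33 promoters (33.3%), against 18.6% of 6599 promoters of all genes. CTTCC, bound by Gcr1, was found in 17 (51.5%, against 38.9%) and CCAAT in 9 (27.3%, against 37.0%). GNGGGG, a loose pattern searched for Mig1, was found in 7 (21.2%, against 11.03%). This pattern overlaps AGGGG where N is A and also matches runs of G, so its hits are not a count of Mig1 sites. AGGGG was present in 5 of the 16 genes lower in ComQuad than in ODIRA_A and in 6 of the other 17. PDC6, HXK2 and ALD5 had no AGGGG in this window, which says only that these letters are not there. Windows of 25 bases around the motif are given for 3 of the 5, with the motif or its reverse complement in capitals (build R64, strand of the gene):
TDH1 (chrX:338032-338056, plus strand): agtctgaagaAGGGGgggaggagca
TDH3 (chrVII:883956-883980, minus strand): tgaaattattCCCCTacttgactaa
PGK1 (chrIII:137537-137561, plus strand): cttctaaccaAGGGGgtggtttagt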

How the data were processed

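The deposited values are whole-number counts of RPF reads per annotated feature, without normalization, 1 table per library. To make these counts, the authors added cycloheximide before harvest, which can move ribosomes near start codons, removed adapters with cutadapt, aligned with STAR and counted on the same strand with bedtools on build R64. The handling of reads with several matches is not given in the sources used here. The chromosome lengths of the tables equal those of the reference for 17 of 17 chromosomes. Counts on coding features were summed per gene.

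Tests used edgeR 4.0.16 in R 4.3.3: TMM, robust quasi-likelihood fits of all 8 libraries by strain, at least 10 RPFs in at least 2 libraries, and Benjamini-Hochberg adjustment over 5725 genes. CPM is TMM-scaled. The script was tested on simulated counts. Isoenzyme ratios were tested by exact permutation, adjusted over 18. The 33 members and the lists were chosen with earlier results of these data known. Values in every library are given for genes whose strain means, or whose isoenzyme ratio, lay more than 1 apart on the log2 scale, and from each list at most the 3 genes with the widest called spread are named. Identity and motifs come from the reference genome, with identity of coding bases in place of proteins. The alternatives included DESeq2 1.42.0, other scalings and filters, a replicate block and leaving out each library. Of 4 alpha markers 3 and of 7 glycerol genes 6 passed the filter. The ancestor, RNA-seq and mass spectrometry were not analysed here.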

Additional observations from a re-analysis of the deposited data

How the results depend on the processing

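No called difference between 2 strains in the 33 genes reversed under any alternative. The genes of the other lists were not followed under the alternatives. With all 8 libraries, or the 4 compared, 584 of 612 recomputed values kept their call and 28 lost it. With 1 library left out, 386 of 544 kept it and 158 lost it. Leaving out 1 library gave 13 to 28 genes among the 4 strains, 4 to 11 for ODIRA_B against ComQuad, 4 to 15 for ODIRA_B against ODIRA_A, 1 to 13 for ODIRA_B against Trans, 9 to 21 for ComQuad against ODIRA_A, 6 to 21 for ComQuad against Trans, 0 to 4 for ODIRA_A against Trans, and 0 to 0 isoenzyme ratios. A lone remaining library was assumed to vary like the others. For the ratios, the limit set by the smallest possible p applied here too. Fitting only the 4 libraries compared gave 16 genes for ODIRA_B against ComQuad and 2 for ODIRA_B against Trans. Total counts without TMM gave 19 for ODIRA_B against ODIRA_A. For ODIRA_A against Trans, DESeq2, RLE normalization, no filter on low counts and the replicate block gave 1 gene each. As a share of coding RPFs in place of TPM, the 33 genes took up a mean of 12.3%. This share was 10.6% to 14.5% per library, against 6.77% to 9.31% of TPM. The units differ, because TPM divides by coding length and the share of RPFs does not. The cause of the shifts in the counts of genes was not tested. The labels do not say that a replicate number marks a shared batch. Over 4279 genes, deviations of same-numbered libraries correlated at 0.17, 0.24 and 0.13 among ODIRA_B, ODIRA_A and Trans, and at -0.26, -0.09 and -0.17 between ComQuad and these, so the numbers were not taken to pair all libraries. With the replicate block, the counts were 23 among the strains, 8, 11 and 10 for ODIRA_B against ComQuad, ODIRA_A and Trans, 19 and 16 for ComQuad against ODIRA_A and Trans, and 1 for ODIRA_A against Trans. With this block 5 calls were lost (adjusted p from 0.0538 to 0.062): PGI1, ODIRA_B minus ComQuad; ADH2, ODIRA_B minus ODIRA_A and minus Trans; PDC6, ODIRA_B minus Trans; and PFK1, ComQuad minus Trans. Each strain had 2 libraries, too few to look for a library far from its group.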
